A study of Mus musculus with 18 samples.

Results

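A set of 58 genes had very low mean levels in 5 groups of mouse embryonic stem cells and higher, mostly still low, levels in the sixth, cells labelled as lacking both RNF2 and BAP1. The genes were chosen by their own levels. A member had a group mean under 0.2 in each of the 5 other groups, a mean of at least 0.5 in the double knockout and at least 10 counts in all 3 double knockout libraries, and genes named Hoxa to Hoxd with a number were left out. Levels are nRPKM, the authors' RPKM (reads set relative to gene length and to library size) after adjustment by a size factor for each library. The 58 members came from 36528 listed genes, of which 18638 met the limit of silence in the 5 groups, so members made up 0.311% of the silent genes. Among silent genes, 9236 had no count in any library, and members were 0.617% of the 9402 that had one. The conditions on levels and counts were also met by 10 HOX genes, which are not described here.

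The groups held 3 libraries of polyadenylated RNA each, all from day 4. The double knockout (dKO) carried knockouts of RNF2 and BAP1 and received 4-hydroxytamoxifen (4-OHT), the drug that switches on Cre recombinase, at 100 nM. The cKO 4-OHT group was a conditional BAP1 line, labelled as a knockout after the same drug, and the C91A 4-OHT group carried BAP1 with its catalytic cysteine replaced. Their references were the same 2 lines without the drug, here called untreated cKO and untreated C91A, and a wild type (WT) line. Every group was also given emricasan, a caspase inhibitor, to keep cells without BAP1 alive. Whether WT cells received 4-OHT, what drives Cre and whether each line is 1 clone are not given in the sources used here. No dKO line without the drug was analysed here, so the double knockout and the line that carries it cannot be told apart in any value given for dKO. The labels do not say whether replicates were separate cultures, so p-values measure only the spread between libraries. Deposited counts summed to between 8106613 and 23039407 per library, and to 13042515, 14231467 and 23039407 in the dKO libraries.

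RNF2 is a ligase of Polycomb repressive complex 1 that puts ubiquitin on histone H2A, and BAP1 is the enzyme that takes it off. Polycomb complexes are known to keep developmental regulators silent in embryonic stem cells, and a variant form with PCGF6, MGA and L3MBTL2 sits at promoters of germ-cell genes. A small part of any embryonic stem cell culture passes through a state that resembles the 2-cell embryo, marked by ZSCAN4, USP17-like, TDPOZ and PRAME-like genes and by the activator DUX. Rnf2 transcripts averaged 22.0 ± 1.03 nRPKM in dKO, 36.5 ± 2.28 in cKO 4-OHT and 33.8 ± 2.19 in WT (SD, n = 3 each), and Bap1 averaged 42.7 ± 3.32 in dKO, 42.01 ± 0.672 in cKO 4-OHT, 45.9 ± 0.777 in C91A 4-OHT, 47.1 ± 0.41 in untreated cKO, 24.9 ± 1.28 in untreated C91A and 49.7 ± 1.92 in WT. By edgeR's quasi-likelihood test Bap1 was slightly lower in cKO 4-OHT than in untreated cKO (log2 fold change -0.17, SE 0.05, adjusted p = 0.0027) and in dKO than in WT (-0.23, SE 0.05, adjusted p = 0.00011). It was higher in C91A 4-OHT than in untreated C91A, where its level was lowest of the 6 groups (0.90, SE 0.05, adjusted p = 8.3e-19). Reads from transcripts that lack a deleted part still add to a gene's count, and which part was deleted is not given, so these levels do not check the knockout labels. Stem cell markers were present in dKO, and none of the 12 listed was at 0. Pou5f1 stood at 617, 708 and 643 nRPKM in dKO, against 625, 703 and 655 in WT. Of the 12, 9 were higher and 1 lower in dKO than in cKO 4-OHT, and 8 higher and 2 lower than in WT. Of all genes tested, 32.6% were higher and 30.6% lower than in cKO 4-OHT, and 26.2% higher and 27.1% lower than in WT. The 12 markers summed to 2673 to 2859 nRPKM in dKO, 1983 to 2052 in cKO 4-OHT and 2530 to 2664 in WT. In bulk RNA, more cells that express a gene and more RNA per cell cannot be told apart.

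The members were grouped into 3 sets, multicopy and early embryonic families, genes for transcription factors and signals, and all others, and 5 promoters are printed here because the first and second sets differ in CpG and TATA letters. Zfp352, Zscan4a, Zscan4b and Zscan4d, which are also listed as transcription factors, were counted with the families, which leaves 9 factors and signals in the second set. Mageb4 and H2-M10.4, from the MAGE-B and H2-M10 gene families, were counted with all others. Their windows held 11 and 5 CpG, more than any window of the first set, and that of H2-M10.4 held TATAAA. Sequences run 5′ to 3′ from 250 bases before to 50 bases after the annotated start, from RefSeq on GRCm38.p6. In the first 3, from multicopy families, capitals mark TATAAA, the TATA box letters. Usp17lb lies at chr7:104842534-104842833, minus strand, Zscan4b at chr7:10905001-10905300, minus strand, and Pramel20 at chr4:143567217-143567516, plus strand.
Usp17lb: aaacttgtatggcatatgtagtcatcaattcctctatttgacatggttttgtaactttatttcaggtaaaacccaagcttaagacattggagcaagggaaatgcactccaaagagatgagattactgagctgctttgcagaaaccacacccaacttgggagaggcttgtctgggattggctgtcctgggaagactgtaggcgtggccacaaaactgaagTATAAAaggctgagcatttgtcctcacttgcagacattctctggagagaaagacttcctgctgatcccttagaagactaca
Zscan4b: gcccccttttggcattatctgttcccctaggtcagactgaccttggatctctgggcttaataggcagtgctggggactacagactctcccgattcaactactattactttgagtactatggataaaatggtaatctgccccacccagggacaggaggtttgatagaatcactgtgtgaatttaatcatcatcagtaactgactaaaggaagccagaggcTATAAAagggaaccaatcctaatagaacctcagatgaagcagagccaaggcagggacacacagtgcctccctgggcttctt
Pramel20: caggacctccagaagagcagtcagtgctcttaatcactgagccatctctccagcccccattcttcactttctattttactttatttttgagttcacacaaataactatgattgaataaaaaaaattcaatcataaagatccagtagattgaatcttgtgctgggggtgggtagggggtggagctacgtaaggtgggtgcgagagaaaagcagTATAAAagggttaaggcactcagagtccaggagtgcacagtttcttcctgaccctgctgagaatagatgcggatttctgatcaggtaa
In the other two, from genes for transcription factors, capitals mark every CpG, the pair of bases at which DNA methylation is set and that gathers in CpG islands. Ebf3 lies at chr7:137314396-137314695, minus strand, and Fev at chr1:74885359-74885658, minus strand.
Ebf3: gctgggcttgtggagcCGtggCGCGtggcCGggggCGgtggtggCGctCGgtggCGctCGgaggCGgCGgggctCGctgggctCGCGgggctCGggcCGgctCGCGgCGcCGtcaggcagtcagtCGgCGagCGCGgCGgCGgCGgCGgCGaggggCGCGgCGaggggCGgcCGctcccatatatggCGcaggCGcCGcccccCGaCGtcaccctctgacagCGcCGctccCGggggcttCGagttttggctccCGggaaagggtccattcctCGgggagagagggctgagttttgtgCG
Fev: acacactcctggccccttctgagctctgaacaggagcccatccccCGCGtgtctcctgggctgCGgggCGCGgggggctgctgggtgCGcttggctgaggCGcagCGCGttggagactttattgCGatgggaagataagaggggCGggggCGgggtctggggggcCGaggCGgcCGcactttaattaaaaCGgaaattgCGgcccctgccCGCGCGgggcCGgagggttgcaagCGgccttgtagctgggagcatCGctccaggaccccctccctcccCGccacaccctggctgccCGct
The first base of TATAAA lay 31 bases before the start in Usp17lb and Zscan4b and 38 before it in Pramel20. These 3 windows held 1, 1 and 3 CpG, against 46 in Ebf3 and 25 in Fev. The 5 printed windows show the contrast more strongly than their sets do. TATAAA was in 7 of the 16 family windows. In Zscan4d, Pramel31, Usp17lc and Usp17ld it began at -65, -68, -88 and -110 from the start, further away than in the 3 printed. Ebf3 and Fev held the most CpG among the 6 windows of factors and signals.

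Promoter windows were found for 36 of the 58 members, and each gene counts once below. Where a member had 2 windows, the one with more CpG gave its CpG count. Tfap2a, with 11 and 15 CpG in its windows, reached 15 only by that choice. CpG content differed between the sets. The 16 windows of the multicopy and early embryonic families held a median of 1 CpG, and none reached 15. The 6 windows of transcription factor and signal genes held a median of 14.5, and 3 of them (50%) reached 15. The 14 other members had a median of 8.5, and 5 (35.7%) reached 15. Over all members the share was 22.2%, against 15.7% of silent genes with a count that were not members and 42% of all 22809 genes with a window. The CpG-rich members were Rasgef1c with 53, Ebf3 with 46, Hoxa11os with 41, H3c14 with 27, Fev with 25, Taf7l2 with 22, Asz1 with 17 and Tfap2a with 15. TATAAA on either strand was in 7 of 16 family windows (43.8%), in 0 of 6 windows of factors and signals, in 10 of all 36 member windows (27.8%) and in 15.3% of all windows. Silent genes that were not members held it in 22.8% of windows, and those of them with a count in 17.8%. The 7 family windows came from related copies, 3 of Usp17l, 2 of Zscan4 and 2 of Pramel genes, and so are not independent. With Zfp352 and the Zscan4 genes counted as factors, 2 of 9 factor and signal windows (22.2%) and 5 of 13 family windows (38.5%) held TATAAA, and the factor and signal windows had a median of 12 CpG. The palindrome TGATTNAATCA is close to the sequence that mouse DUX is known to bind. It was in 0 of the 36 members with a window and in 8 of all 22809 genes with one. Matches of TATAAA were counted at any place in the window, as far as -243 from the start, on the opposite strand, in Hoxa11os. A match or its absence in these windows describes their letters only.

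**Figure D1:**
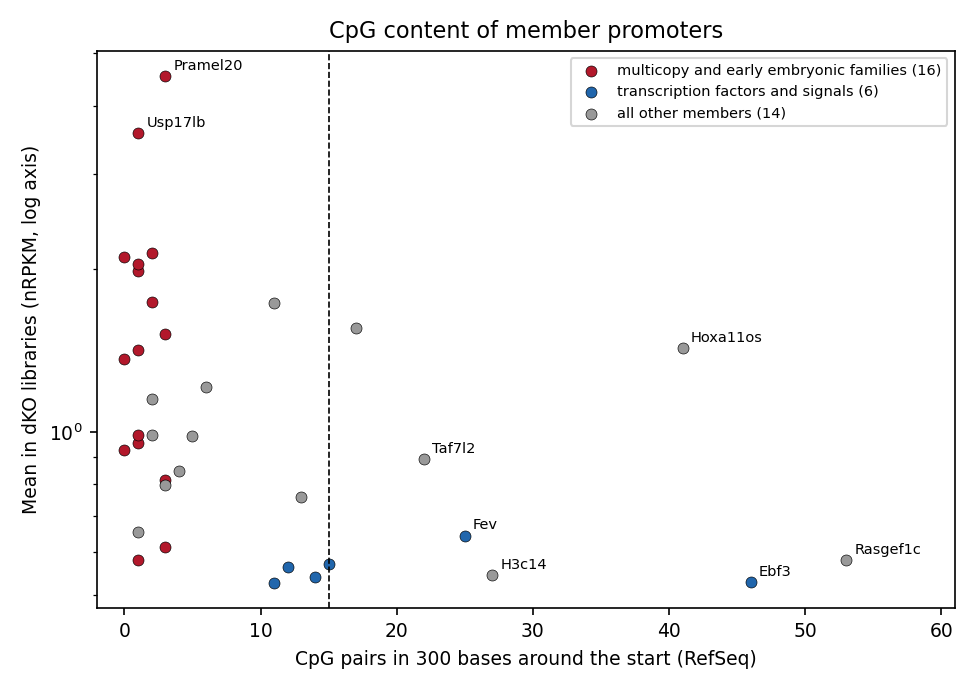
CpG pairs in the 300 bases around the annotated start (x axis) against the mean level in the 3 dKO libraries (y axis, nRPKM on a log scale) for the 36 members with a RefSeq window. Points are genes, coloured by set, at the window with more CpG where a gene has several, and the dashed line marks 15 CpG. All 16 family windows lie left of it, while Ebf3, Fev and Tfap2a lie on or right of it.

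All 58 members were low genes also in dKO. Their dKO means had a median of 0.989 nRPKM, with 2 members at 5 or more, 8 between 2 and 5, 18 between 1 and 2 and 30 under 1. The highest mean among the 5 other groups had a median of 0.123. The ratio of the dKO mean to that highest other mean had a median of 13.2 and ran from 2.83 in Nrg2 to 50.1 in Tmem92. Since the rule used these values, they describe the choice and support nothing. The lowest dKO library stood above all 15 other libraries for each of the 58 members. No member was at 0 in all 15 other libraries, and 16 had no count in all 3 libraries of at least 1 other group. Some had many counts elsewhere: Nrg2 had 263 over the dKO libraries and 336 over the 15 others, and Lmx1a 132 and 132. In counts scaled to library size (CPM), the members together came to 201, 185 and 199 in the dKO libraries. The same sum was 9.96 to 10.51 in cKO 4-OHT, 7.61 to 7.86 in C91A 4-OHT, 8.42 to 12.6 in untreated cKO, 9.64 to 11.4 in untreated C91A and 11.1 to 12.7 in WT. All 58 members had a count in each dKO library, and 31 to 51 of them had one in each other library.

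**Figure D2:**
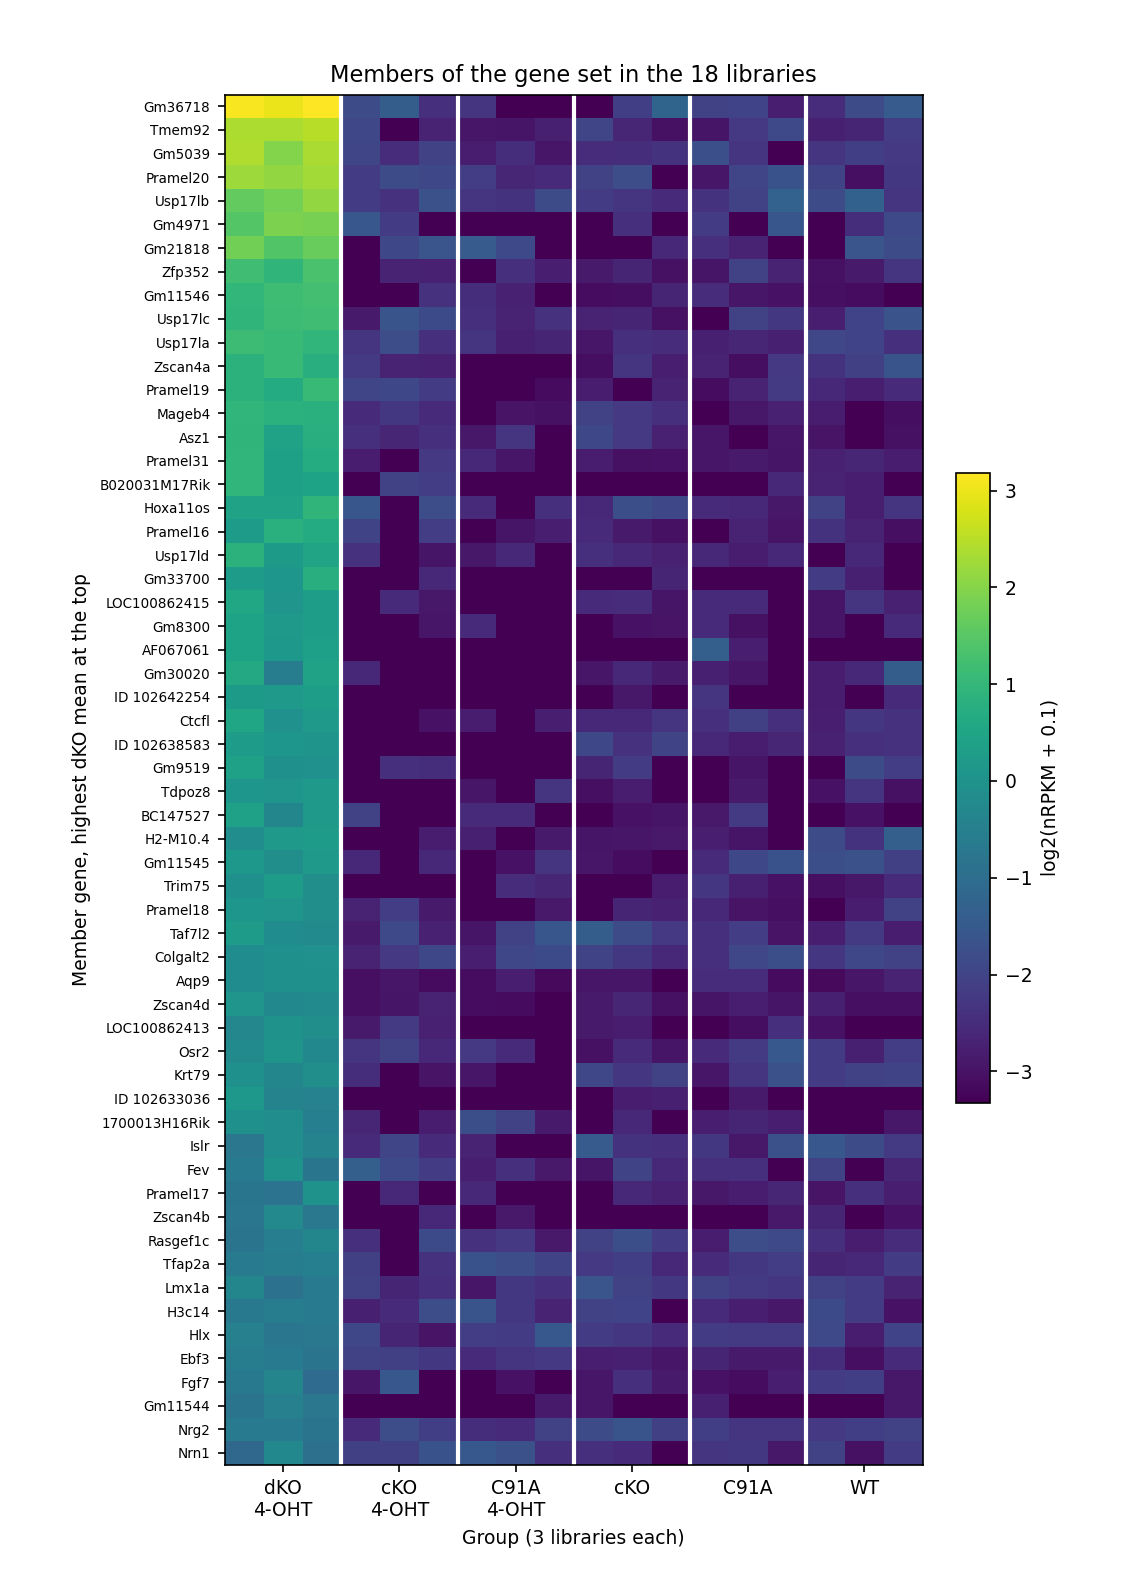
Level of the 58 members (rows, highest dKO mean at the top) in the 18 libraries (columns, 3 per group, dKO at the left), as log2(nRPKM + 0.1). Lighter cells are higher. The 3 dKO columns are lighter in every row, and no other group has a block of lighter cells.

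With each other group in turn put in the place of dKO, the same rule found 0 genes for cKO 4-OHT, 3 for C91A 4-OHT, 0 for untreated cKO, 1 for untreated C91A and 0 for WT. The 3 genes of C91A 4-OHT were Scel, Pcdh18 and Piezo2, at 0.693, 0.573 and 0.532 nRPKM, and the gene of untreated C91A was Klk7, at 0.516. These 4 genes were at or under 0.147 in dKO. For the cKO and C91A groups the rule asked that the same line be silent in its other state, while dKO had no such partner. The count limit was also harder to meet in cKO 4-OHT, which held the smallest library, with 8106613 counts. The numbers are thus not like for like.

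**Figure D3:**
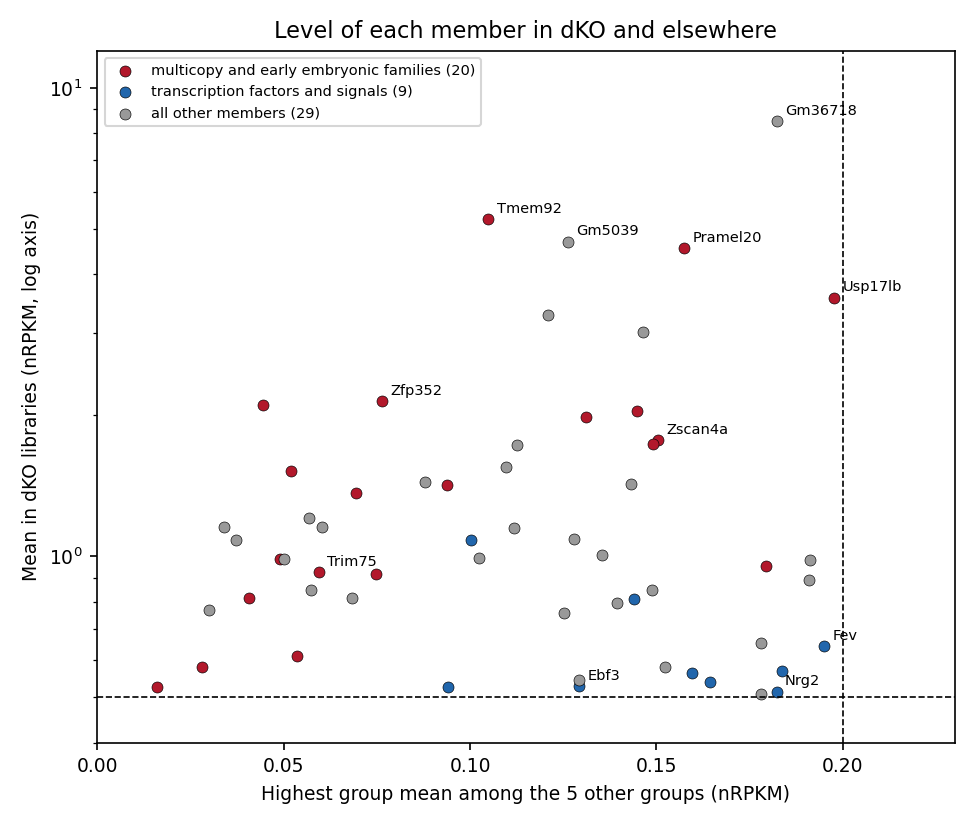
Mean in dKO (y axis, nRPKM on a log scale) against the highest group mean among the 5 other groups (x axis, nRPKM) for the 58 members, coloured by set. Dashed lines are the limits of the rule, 0.5 in dKO and 0.2 elsewhere, so every point lies above and left of them; factors and signals lie between 0.515 and 1.08, and the families reach 5.25.

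Multicopy and early embryonic families supplied 20 of the 58 members: 3 ZSCAN4, 4 USP17-like, 6 PRAME-like and 1 TDPOZ gene, Tmem92 with 3 neighbouring genes, Zfp352 and Trim75. Their dKO means had a median of 1.47 nRPKM and their highest other means a median of 0.0756. Summed over the 20 genes, the level was 34.6 to 37.7 nRPKM in dKO, 1.19 to 1.497 in cKO 4-OHT, 0.711 to 0.903 in C91A 4-OHT, 0.638 to 1.05 in untreated cKO, 0.835 to 1.66 in untreated C91A and 1.31 to 1.60 in WT. These families were grouped after their values were seen, and the MAGE-B and H2-M10 families, with 1 member each, were left out.

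The ZSCAN4 genes encode SCAN-domain zinc finger proteins of the 2-cell embryo that act at telomeres. Zscan4a, annotated by RefSeq as a transcribed pseudogene, had 1.70, 1.98 and 1.63 nRPKM in dKO, against 0.116, 0.0565 and 0.0516 in cKO 4-OHT and 0 in each C91A 4-OHT library. It had 0.0187, 0.0994 and 0.0449 in untreated cKO, 0.0579, 0.0181 and 0.111 in untreated C91A, and 0.0934, 0.134 and 0.224 in WT. The dKO libraries lay well above the rest, and among the other groups WT had the highest mean, 0.150. Zscan4d averaged 0.816 ± 0.124 and Zscan4b 0.58 ± 0.139 nRPKM in dKO (SD, n = 3), and neither passed 0.0651 in any of the 15 other libraries. The 3 remaining ZSCAN4 genes were silent elsewhere too but stayed under 0.5 in dKO, with Zscan4e at 0.44, Zscan4f at 0.394 and Zscan4c at 0.163. The copies are nearly alike. Only 9.9% to 50.4% of the 50-base windows of their transcripts occur in no other gene's transcript, and since only reads that aligned in 1 place were counted, the order of the copies is uncertain.

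USP17-like genes encode deubiquitinases of the DUB family. Usp17lb had 2.96, 3.42 and 4.32 nRPKM in dKO, against 0.124, 0.0907 and 0.207 in cKO 4-OHT and 0.187, 0.308 and 0.0978 in WT. Its highest value in the other 9 libraries was 0.313, in untreated C91A. Usp17lc averaged 2.04 ± 0.189, Usp17la 1.98 ± 0.128 and Usp17ld 1.36 ± 0.325 nRPKM in dKO (SD, n = 3). The fifth gene, Usp17le, was no member because its cKO 4-OHT mean was 0.35, and it stood at 3.05 in dKO. All 5 genes were therefore higher in every dKO library than in the others. Between 48.9% and 79.9% of their windows were unique.

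PRAME-like genes encode leucine-rich repeat proteins of germ cells and early embryos. Of 45 listed genes 41 were silent in the 5 groups, 23 of those had no count anywhere, and 6 were members. Pramel20 had 4.61, 4.25 and 4.76 nRPKM in dKO, against 0.124, 0.182 and 0.166 in cKO 4-OHT and 0.15, 0.0206 and 0.109 in WT. The dKO libraries differed little among themselves, with a coefficient of variation of 5.87%. Pramel19 averaged 1.74 ± 0.244, Pramel31 1.52 ± 0.318, Pramel16 1.42 ± 0.2997, Pramel18 0.918 ± 0.0763 and Pramel17 0.612 ± 0.248 nRPKM in dKO (SD, n = 3). Pramel17 was uneven, with 0.479, 0.459 and 0.899 in the 3 libraries. Outside the set, Pramel24 averaged 2.86 in dKO and 0.363 in cKO 4-OHT. Of the 39 PRAME-like genes outside the set with a GENCODE transcript, 21 had fewer than 50% unique windows, so a reading of 0 there may miss transcripts. In the 5 PRAME-like members with such a transcript the unique share ran from 36.5% to 86.6%, with Pramel20 at 44.7%. The order of these members is therefore uncertain too.

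The single genes of this kind were Zfp352, Trim75 and Tdpoz8. Zfp352, a zinc finger gene active in the 2-cell embryo, had 2.20, 1.82 and 2.41 nRPKM in dKO, against a lowest value of 0, a median of 0.0467 and a highest of 0.145 in the 15 other libraries. Trim75, a tripartite motif gene, had 0.856, 1.09 and 0.835 in dKO and no count in the 3 cKO 4-OHT libraries. Set against a floor of 3 counts over that group, with its dKO counts taken as exact, Trim75 was at least 27.6-fold higher in dKO. Tdpoz8, a TRAF and POZ domain gene, averaged 0.988 ± 0.0548 in dKO (SD, n = 3), also had no count in cKO 4-OHT and was at least 26.1-fold higher in dKO by the same floor. The 7 other TDPOZ genes stayed at or under 0.32 in dKO, and Tdpoz5 and Tdpoz7 had no unique window.

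Duxf3, the double homeobox activator of 2-cell genes, fell short of the limit of 0.5, with 0.364, 0.385 and 0.406 nRPKM in dKO and at most 0.032 in any other library. Tcstv1 and Tcstv3, genes of 2-cell-like cells, passed it, with means of 5.07 and 1.76 in dKO, but stood above 0.2 in cKO 4-OHT (Tcstv1, 0.275) or WT (Tcstv3, 0.215) and so were no members.

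**Figure D4:**
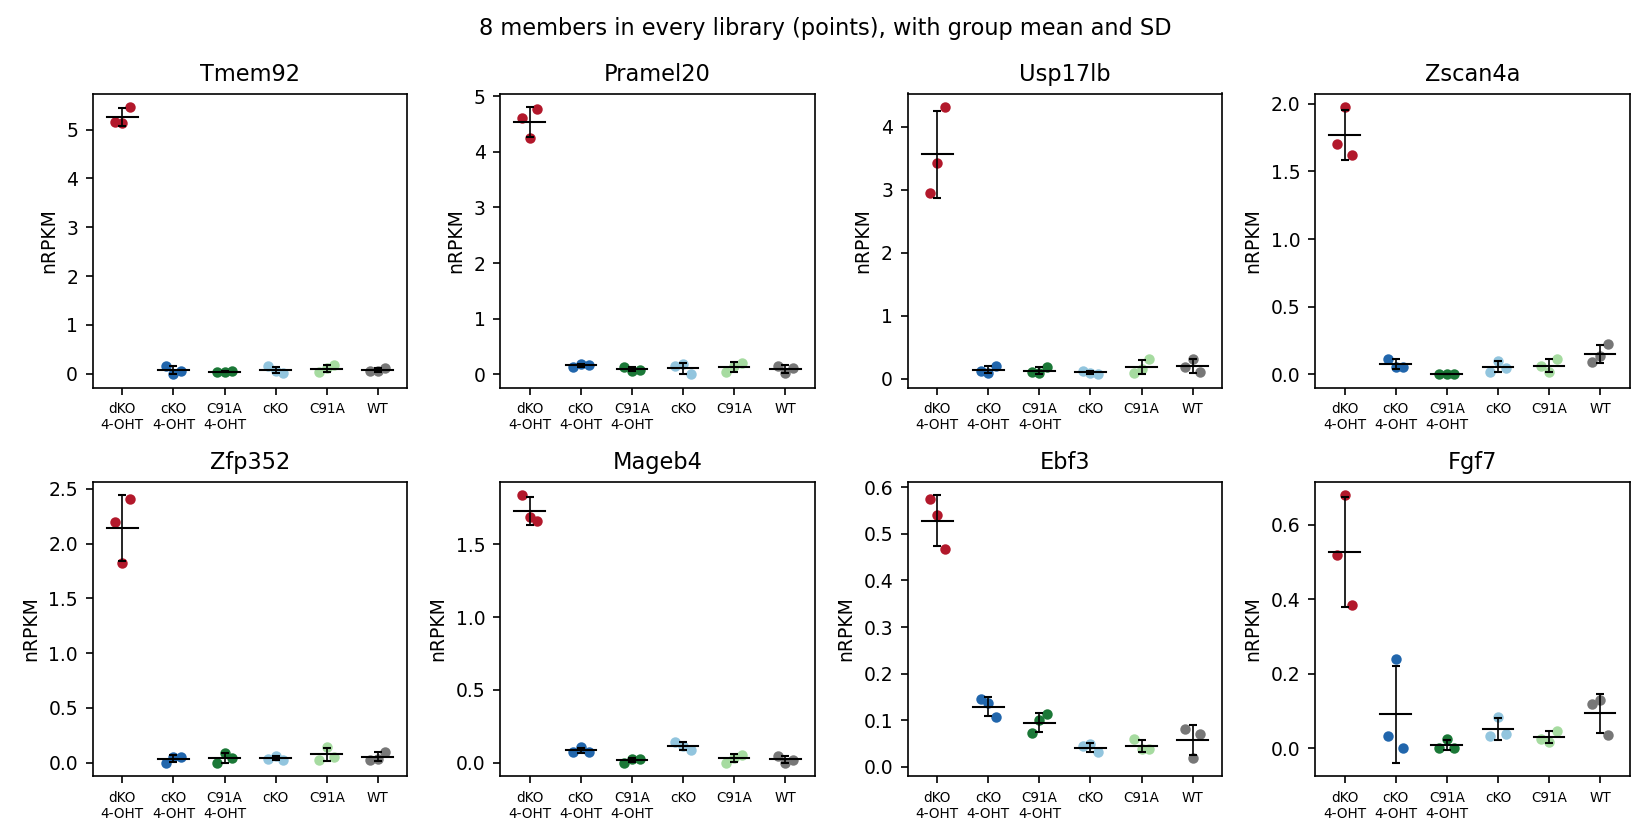
Level in each library (points, nRPKM) of 8 members, with the group mean (horizontal line) and SD (error bar) of 3 libraries, dKO at the left. In each panel the 3 dKO points lie above all 15 others, and in Ebf3 the 2 drug-treated BAP1 groups lie between dKO and the untreated lines.

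The highest member, Gm36718 on chromosome 18, had 8.62, 7.89 and 9.003 nRPKM in dKO, against 0.188, 0.276 and 0.0838 in cKO 4-OHT and 0.0759, 0.187 and 0.264 in WT. Tmem92, a transmembrane protein gene, had 5.16, 5.14 and 5.47 in dKO and a highest value of 0.173 in the other libraries, and its coefficient of variation in dKO, 3.51%, was the lowest of the set. Gm5039 averaged 4.70 ± 0.761 and Gm4971 3.27 ± 0.548 in dKO (SD, n = 3), both annotated as transcribed pseudogenes. Gm21818 followed with 3.01 ± 0.418. By RefSeq 49 members were protein coding, 3 pseudogenes and 3 noncoding, and 3 had no name in the tables used.

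Mageb4, Asz1 and Ctcfl have known links to germ cells. Mageb4, a MAGE family gene on the X chromosome, had 1.84, 1.69 and 1.66 nRPKM in dKO and 0 to 0.141 in the other libraries, while 6 of the 7 other MAGE-B genes stayed at or under 0.057 in dKO. Of the transcript windows of Mageb4, 49.9% were unique. Asz1, which works in the piRNA pathway of germ cells, had 1.81, 1.25 and 1.60 in dKO and 0 to 0.168 elsewhere. Ctcfl, the germ-cell relative of CTCF, had 1.34, 0.881 and 1.02 in dKO and 0 to 0.134 elsewhere. A list of 45 germline genes, chosen with earlier results known and without these 3, held no member. Of the 45, 39 were not silent in the 5 groups, and the 6 silent ones did not meet the limits in dKO. Of its 42 tested genes 37 were higher and 1 was lower in dKO than in cKO 4-OHT, where 32.6% of all 16875 tested genes were higher and 30.6% lower (edgeR's quasi-likelihood test, Benjamini-Hochberg adjusted p under 0.05). Their median log2 fold change was 2.05, against 0.03 over all genes. Against WT, 31 were higher and 4 lower in dKO, with a median of 1.03, where 26.2% of all genes were higher and 27.1% lower. In cKO 4-OHT 2 were higher and 29 lower than in untreated cKO, with a median of -0.92 against -0.01 over all genes, where 31.3% of all genes were higher and 30.3% lower. The comparison of dKO with cKO 4-OHT thus includes the lower level in cKO 4-OHT. Examples were Stra8, which starts meiosis, at 36.4 nRPKM in dKO and 1.91 in cKO 4-OHT, and Mael, of the piRNA pathway, at 48.5 in dKO and 6.25 in cKO 4-OHT.

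Beside Zfp352 and the 3 Zscan4 genes, transcription factors and signals supplied 9 members, of which all but Ctcfl had a dKO mean under 1. Their dKO means had a median of 0.564 nRPKM and their highest other means a median of 0.160, so the ratio had a median of 3.53, against 18.8 in the families. With those 4 put back, 3 of the 13 had a dKO mean of 1 or more. Summed over the 9, the level was 5.22 to 6.15 in dKO, 0.646 to 1.09 in cKO 4-OHT, 0.721 to 0.822 in C91A 4-OHT and 0.663 to 0.986 in WT. Osr2, a zinc finger factor of limb and palate, averaged 0.810 ± 0.109 in dKO and 0.101 ± 0.0389 in cKO 4-OHT (SD, n = 3 each). Fev, which specifies serotonin neurons, had 0.554, 0.896 and 0.480 in dKO, against 0.294, 0.173 and 0.118 in cKO 4-OHT. Tfap2a, of the neural crest, had 0.531, 0.573 and 0.604 in dKO, against 0.135, 0 and 0.0905 in cKO 4-OHT and 0.210, 0.189 and 0.152 in C91A 4-OHT. Lmx1a, a LIM homeobox factor of dopamine neurons, averaged 0.564 ± 0.121 in dKO and 0.106 ± 0.0446 in WT, and Hlx, a homeobox factor, averaged 0.539 ± 0.0679 in dKO and 0.121 ± 0.0703 in WT (SD, n = 3 each).

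Ebf3, an early B-cell factor family gene of neural and mesenchymal tissues, had 0.575, 0.542 and 0.468 nRPKM in dKO, against 0.146, 0.136 and 0.106 in cKO 4-OHT and 0.0719, 0.0997 and 0.113 in C91A 4-OHT. It had 0.045, 0.0478 and 0.0309 in untreated cKO, 0.0596, 0.0374 and 0.0383 in untreated C91A, and 0.0802, 0.0198 and 0.0698 in WT. Fgf7, a keratinocyte growth factor, had 0.519, 0.679 and 0.384 in dKO and a single high value of 0.239 elsewhere, in cKO 4-OHT. Nrg2, a neuregulin, averaged 0.515 ± 0.0409 in dKO and 0.132 ± 0.0584 in cKO 4-OHT (SD, n = 3 each), and it overlaps Psd2, which stood at 1.13 in dKO and at most 0.996 in the other groups. Lists of regulators of tissues gave 1 member of 25 silent neural genes (Lmx1a), 1 of 18 silent mesoderm, muscle and kidney genes (Osr2), and 0 of 9 endoderm and 0 of 4 blood and endothelium genes. A wider list of homeobox genes gave 2 of 115 silent ones (Lmx1a and Hlx). Together, the 5 lists of factors and signals gave 13 of 399 silent genes (3.26%), with 8 of the 13 from the 87 silent genes listed as other transcription factors. Across all silent genes the share was 0.311%, and across silent genes with a count in some library it was 0.617%. The 13 include Zfp352 and the 3 Zscan4 genes, which are counted above with the families. With counts this small the lists cannot be ranked.

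The remaining named members were genes of diverse kinds. Aqp9, a channel for water and glycerol, had 0.801, 0.870 and 0.871 nRPKM in dKO, against 0 to 0.0785 in the other libraries. Colgalt2, which adds galactose to collagen, averaged 0.850 ± 0.0462 in dKO and 0.149 in untreated C91A, its highest other group. H2-M10.4, a nonclassical MHC class I gene, averaged 0.982 ± 0.153 in dKO and 0.191 in WT, while the other 5 H2-M10 genes were at 0 in dKO. Krt79, a keratin, averaged 0.796 ± 0.0923 in dKO (SD, n = 3). Hoxa11os, a noncoding RNA on the opposite strand of Hoxa11, had 1.23, 1.25 and 1.80 in dKO, against 0.236, 0 and 0.19 in cKO 4-OHT. Hoxa11 itself averaged 1.09 in dKO and at most 0.163 in any other group, and since use of read strand in counting is not given, reads of the 2 genes cannot be told apart. H3c14, a histone H3 gene, averaged 0.544 ± 0.0279, but none of its transcript windows was unique.

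Several members were neighbours. Of 55 members with a position, 14 lay within 100 kb of another, in 5 groups. Among the 140 silent genes that lie within 100 kb of a member, those 14 make up 10%, against 0.381% of all 14430 silent genes with a position. Genes of 1 family often sit side by side, so neighbours are not independent. The tightest group was chr7:104840257-104862667 with Usp17lb and Usp17la. The group at chr11:94755129-94849593 held Gm11545, Tmem92, Gm11546 and Gm11544, at 0.953, 5.25, 2.10 and 0.525 nRPKM in dKO. Between them lie AA623943 and Gm11543, which had even higher means of 8.75 and 7.32 in dKO but were no members because of cKO 4-OHT means of 0.304 and 0.26. So all 6 listed genes of this stretch were read in dKO at over 0.5. The group at chr4:101834969-101943183 held Pramel17, Pramel18 and Pramel19, and C130073F10Rik between them did not follow the pattern, with 0.604 in dKO and 0.652 in WT. The other groups were Gm21818, AF067061 and BC147527 at chr13:120172408-120308843 and LOC100862413 and LOC100862415 at chr6:1243661-1342005. Coordinates are those of GRCm38.p6, and each stretch was taken from the first to the last base of its member genes. Chromosome 7 held 10 members, chromosome 4 held 7 and chromosome 13 held 6.

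**Figure D5:**
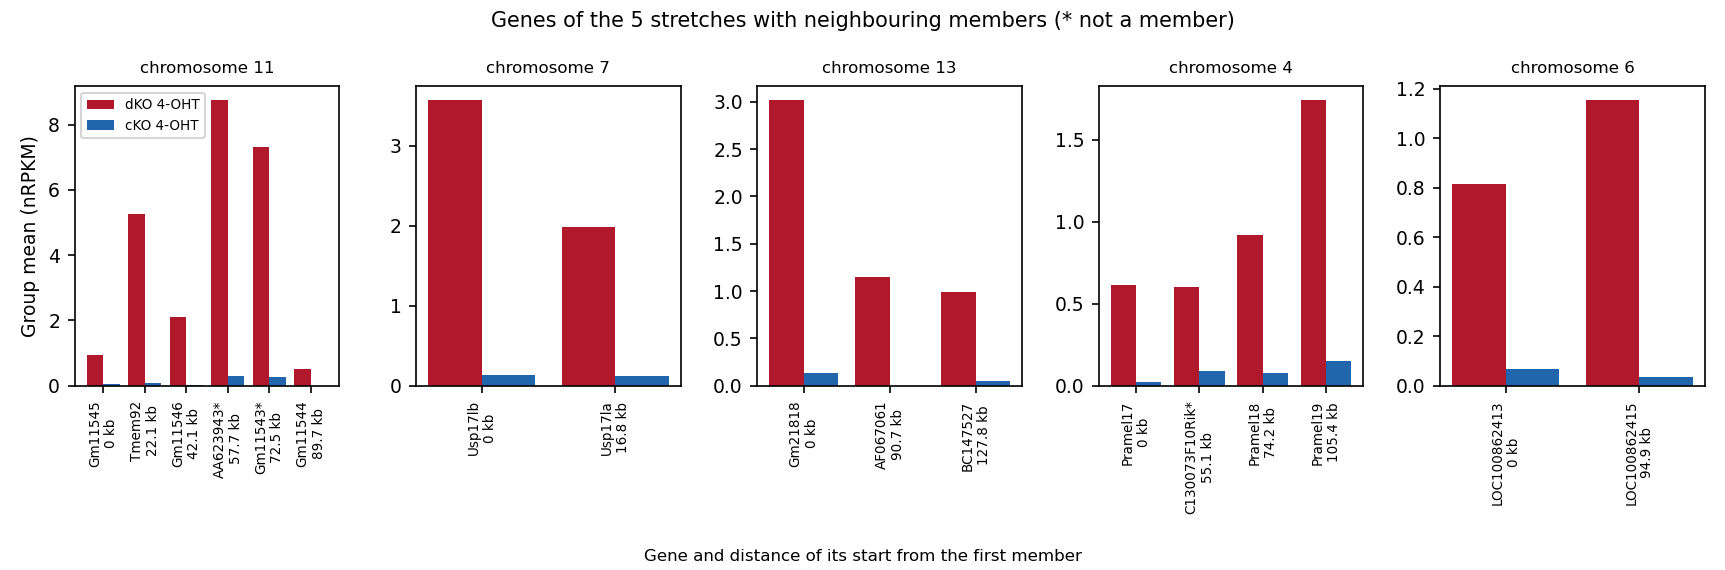
Group means (bars, nRPKM) in dKO and cKO 4-OHT of the genes in the 5 stretches with neighbouring members, in order along the chromosome, with the distance of each start from the first member in kb. An asterisk marks a gene that is no member. On chromosome 11 all 6 dKO bars are higher than the cKO 4-OHT bars, with AA623943 highest at 8.75.

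All 58 members were also tested in the BAP1-only and C91A comparisons. The rule had held both groups of each comparison low, and 50 of the 58 had fewer than 10 counts in every library of the cKO comparison and 48 in every library of the C91A comparison. Both limit how many members can be called, so nothing is read from the number of calls. In cKO 4-OHT against untreated cKO, 3 members were higher and 2 lower, where 31.3% of all genes tested were higher and 30.3% lower. At an unadjusted p under 0.05 the numbers were 5 and 4. Their median log2 fold change was 0.05, against -0.01 over all genes. With the 9 members at 0 in a group set to a floor of 3 counts, it was 0.41. For 8 of those 9 both groups lay at or under the floor, so their fold gives only the ratio of library sizes. Nothing is therefore read from the value of 0.41. In C91A 4-OHT against untreated C91A, 1 member was higher and 7 lower, where the shares of all genes were 28.6% and 26.4%, and the unadjusted numbers were 1 and 10. The median was -0.67, against -0.01 over all genes, and -0.21 with 12 members at that floor. For 7 of those 12 both groups again lay at or under the floor, so nothing is read from -0.21. Small changes were not detectable at this depth.

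Ebf3 rose in both comparisons. It had 11, 7 and 12 counts in cKO 4-OHT, against 7, 7 and 4 in the larger untreated cKO libraries (log2 fold change 1.56, SE 0.45, adjusted p = 0.0027), and held its call in all 10 alternatives run, 6 of which left out 1 library. It had 7, 10 and 14 counts in C91A 4-OHT, against 6, 6 and 4 in untreated C91A (1.12, SE 0.46, adjusted p = 0.037). That second call was lost in 6 of 9 alternatives, with adjusted p between 0.031 and 0.14. Ctcfl fell in both comparisons, with 0, 0 and 2 counts in cKO 4-OHT, against 7, 7 and 9 in untreated cKO (-2.55, SE 0.87, adjusted p = 0.01). It had 3, 0 and 4 counts in C91A 4-OHT, against 6, 15 and 6 in untreated C91A (-1.70, SE 0.61, adjusted p = 0.017). Without replicate 1 of cKO 4-OHT the first adjusted p was 0.054, the highest of alternatives that began at 0.0072, and without replicate 2 of C91A 4-OHT or of untreated C91A the second lost its call, with adjusted p up to 0.11 and as low as 0.013 in other alternatives.

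Pramel19 moved in opposite directions. It had 7, 5 and 8 counts in cKO 4-OHT, against 4, 0 and 4 in untreated cKO (2.11, SE 0.62, adjusted p = 0.0031), a call held in all 9 alternatives. It had 0, 0 and 1 in C91A 4-OHT, against 1, 5 and 7 in untreated C91A (-3.14, SE 1.05, adjusted p = 0.011), a call lost without replicate 3 of untreated C91A (adjusted p = 0.078, against 0.0043 to 0.043 in the others). Zscan4a had no count in C91A 4-OHT and 2, 1 and 4 in untreated C91A, a 2.05-fold fall with C91A 4-OHT at the floor of 3 counts. That ratio takes the few counts of untreated C91A as exact, so it is no lower bound. The fall was called by edgeR's quasi-likelihood test (adjusted p = 0.017). That call was lost without replicate 3 of either group, with adjusted p between 0.0071 and 0.08 over all alternatives. The other calls of C91A 4-OHT were falls of Krt79 (-3.14, adjusted p = 0.0091), Gm11545 (-1.70, adjusted p = 0.029), Islr (-2.45, adjusted p = 0.035) and LOC100862415, which had 0 counts against 5 in all (adjusted p = 0.044). In cKO 4-OHT they were a rise of B020031M17Rik, with 3 counts against 0 (adjusted p = 0.048), and a fall of the unnamed gene 102638583, with 0 counts against 9 (adjusted p = 0.016). Each of these 6 calls was lost without at least 1 library, and 4 of them, of B020031M17Rik, LOC100862415, Islr and gene 102638583, also with DESeq2.

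In dKO all 58 members were higher than in cKO 4-OHT, where 32.6% of all genes were, and than in WT, where 26.2% were. The rule set both counts, so nothing is read from them. The shares of all genes that were lower in dKO were 30.6% against cKO 4-OHT and 27.1% against WT. Genes of Polycomb repressive complex 1 were mixed, with 11 of 27 higher and 6 lower in dKO than in cKO 4-OHT. Against WT, 13 of these genes were higher and 5 lower. The chromatin-binding subunits Cbx8 (2.66, SE 0.30) and Scml2 (1.73, SE 0.19) were among those higher than in cKO 4-OHT. Of 13 PRC2 genes 8 rose and 4 fell against cKO 4-OHT. Epop at 0.83 (SE 0.05) and Jarid2 at 0.78 (SE 0.05) were among the 8. Of 11 BAP1 complex genes 4 rose and 5 fell against cKO 4-OHT, and 5 rose and 3 fell against WT. Against WT, 5 PRC2 genes were higher and 5 lower in dKO, with a median log2 fold change of 0.06. In cKO 4-OHT 2 PRC2 genes were higher and 7 lower than in untreated cKO, with a median of -0.19. Of all genes, 31.3% were higher and 30.3% lower in that comparison.

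Markers of other cell types were compared in the same libraries, where 32.6% of all genes were higher and 30.6% lower in dKO than in cKO 4-OHT, and 26.2% higher and 27.1% lower than in WT. Of 12 tested genes of primitive and visceral endoderm 11 were higher and 0 lower in dKO than in cKO 4-OHT, and 3 higher and 3 lower than in WT. The summed level of the 16 listed was 202 to 213 nRPKM in dKO, 147 to 159 in cKO 4-OHT, 415 to 454 in C91A 4-OHT, 90.2 to 93.0 in untreated cKO, 263 to 273 in untreated C91A and 273 to 278 in WT, and Ttr was at 0 in dKO. Of 15 tested fibroblast markers 7 were higher and 4 lower in dKO than in cKO 4-OHT, and 10 higher and 2 lower than in WT. The sum over the 17 listed was 151 to 154 in dKO, 229 to 234 in cKO 4-OHT, 164 to 170 in C91A 4-OHT, 78.5 to 79.8 in untreated cKO, 88.6 to 95.6 in untreated C91A and 101 to 104 in WT, with Fap and Lum at 0 in dKO. Of 12 tested trophoblast markers 7 were higher and 3 lower in dKO than in cKO 4-OHT, and 3 higher and 8 lower than in WT. The sum over the 14 listed was 145 to 184 in dKO, 220 to 224 in cKO 4-OHT, 659 to 730 in C91A 4-OHT, 132 to 141 in untreated cKO, 347 to 368 in untreated C91A and 225 to 239 in WT, with Prl3d1 and Tpbpa at 0 in dKO. Of 12 tested neuron markers 4 were higher and 4 lower in dKO than in cKO 4-OHT, and 6 higher and 2 lower than in WT. Their list summed to 160 to 167 in dKO, 255 to 264 in cKO 4-OHT, 199 to 203 in C91A 4-OHT, 176 to 188 in untreated cKO, 155 to 169 in untreated C91A and 146 to 159 in WT. Of 8 tested endothelium and blood markers 5 were higher and 1 lower in dKO than in cKO 4-OHT, and 3 higher and 1 lower than in WT. Their list summed to 33.3 to 34.9 in dKO, 25.97 to 28.1 in cKO 4-OHT, 23.9 to 24.97 in C91A 4-OHT, 21.8 to 22.7 in untreated cKO, 33.8 to 35.1 in untreated C91A and 25.3 to 27.7 in WT, with Hbb-y at 0 in dKO. Of 9 tested muscle markers 6 were higher and 1 lower in dKO than in cKO 4-OHT, and 3 higher and 3 lower than in WT. Their list summed to 16.9 to 18.7 in dKO, 26.6 to 29.05 in cKO 4-OHT, 68.9 to 86.8 in C91A 4-OHT, 19.5 to 22.05 in untreated cKO, 39.7 to 45.2 in untreated C91A and 33.8 to 37.01 in WT. The neuron, muscle, fibroblast and trophoblast sums were lower in dKO than in cKO 4-OHT, while the endoderm and the endothelium and blood sums were higher. Medians over the tested genes did not follow the sums. The median log2 fold change against cKO 4-OHT was 1.60 for muscle, 0.505 for fibroblast, 0.30 for trophoblast and 0.03 for neuron markers. It was 1.17 for endoderm and 0.45 for endothelium and blood markers, and 0.03 over all genes. The part of such cells in the members' levels was not tested.

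The limits of the rule cut through a gradual range. Just inside the limit of 0.5 lay Nrn1 at 0.507, Nrg2 at 0.515 and Gm11544 at 0.525 nRPKM in dKO, and just outside lay Krt75 at 0.484, Cyp26b1 at 0.465 and Abcb5 at 0.462. Just inside the limit of 0.2 lay Usp17lb at 0.198, Fev at 0.195 and H2-M10.4 at 0.191 in their highest other group, and just outside lay Gm20767 at 0.208, Lbp at 0.214 and Tcstv3 at 0.215. Spread among dKO libraries was widest in Gm30020 with a coefficient of variation of 41.2%, Pramel17 with 40.6% and Nrn1 with 38.3%, and narrowest in Tmem92 with 3.51%, Aqp9 with 4.72% and H3c14 with 5.13%. Over all members its median was 15.2%. Replicate 1 of dKO was highest for 26 members, replicate 2 for 13 and replicate 3 for 19, under a rule that asked for at least 10 counts in each.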

How the data were processed

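RNA was sequenced as single reads of 50 bases from TruSeq version 2 libraries, per the labels. The submitters' processing notes name GSNAP and the build GRCm38, with no version of the aligner. Per the file headers, the authors deposited for each gene a count of uniquely aligned reads and a size-factor-adjusted RPKM, here nRPKM. The annotation, the use of strand and the size factor method are not given in the sources used here. Names came from RefSeq GRCm38.p6 for 31049 IDs and GENCODE M21 for 78, and 5401 had none.

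Members, gene lists and tests were chosen with earlier results of these data known. Islr was taken out of the homeobox list and Hlx put in after values were seen. The members named were the 12 highest in dKO, up to 4 of each list of roles or regulators, the 3 nearest to each side of each limit, up to 4 called in each direction, those within 100 kb of another, and the 3 of widest and 3 of narrowest spread; others were added after values were seen.

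The main test was edgeR's 2-sided quasi-likelihood F test (edgeR 4.0.16 with limma 3.58.1 under R 4.3.3). It took the counts of 16875 genes kept by filterByExpr, with TMM scaling and 1 mean for each of 6 groups over all 18 libraries. A gene was called where its p, adjusted by Benjamini-Hochberg over all tested genes, was under 0.05. The standard error is the log2 fold change over the square root of F. The test was checked on data simulated from untreated cKO levels. Changes were set only in genes above a floor that most members did not reach, so the check does not cover their low counts. DESeq2 1.42.0, other scalings, no filter, 2 groups only and leaving out each library were alternatives. Replicates were numbered in order of submission and pair nothing. Counts of libraries of 1 group differed by more than sampling (chi-square per degree of freedom 1.77 to 5.78). Unique windows are the share of 50-base windows of GENCODE M21 transcripts found in no other gene's transcript on either strand, with overlapping gene models counted as other genes.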

Additional observations from a re-analysis of the deposited data

Results flagged for a closer look

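The difference between the BAP1 knockout effect and the C91A effect, each drug-treated group against its untreated line, passed the test of that difference for 2 of the 58 members, where 12.2% of all genes tested had a positive and 13.8% a negative difference. For Pramel19 the difference was 5.24 on the log2 scale (SE 1.20, adjusted p = 0.00094 with edgeR's quasi-likelihood test), from 7, 5 and 8 counts in cKO 4-OHT, 4, 0 and 4 in untreated cKO, 0, 0 and 1 in C91A 4-OHT, and 1, 5 and 7 in untreated C91A. For Zscan4a the fitted difference was 4.68 (SE 1.76, adjusted p = 0.045), from 3, 1 and 2 counts in cKO 4-OHT, 1, 5 and 2 in untreated cKO, 0 in each C91A 4-OHT library, and 2, 1 and 4 in untreated C91A. The group at 0 makes the size of the second difference depend on the fit. Zscan4a was not called between cKO 4-OHT and untreated cKO (log2 fold change 0.41, SE 0.81, adjusted p = 0.68 by the same test). Its difference thus rested mostly on the C91A comparison, whose call was lost without replicate 3 of either group. Neither difference was run under the alternatives, and 36.4% of the Zscan4a transcript windows were unique.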

How the results depend on the processing

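The number of members, 58, followed the limits. It was 22 with an upper limit of 0.1 and 88 with 0.3, 96 with a lower limit of 0.3 and 28 with 1, and 34 with the upper limit applied to each library. On a CPM scale with TMM factors, which takes no account of gene length, it was 38, of which 25 were shared, and 14 at equal depth, with 10 shared. With another group as the open one it was 0 (cKO 4-OHT), 3 (C91A 4-OHT), 0 (untreated cKO), 1 (untreated C91A) and 0 (WT). Leaving out 1 library gave 55 to 71, highest without dKO replicate 2, with 54 shared. Rescaling nRPKM by TMM or DESeq2 factors, chosen after seeing the data, and the other settings kept the number within 1.5 times. With only the 2 groups fitted, the filter left 3 of the 58 members to test in either comparison. Members called higher in cKO 4-OHT numbered 3 (1 with only the 2 groups fitted, 2 to 4 without 1 library) and lower 2 (1 with DESeq2, 0 with 2 groups, 1 to 4 without 1 library). In C91A 4-OHT, 1 was called higher (0 with no filter, DESeq2 or 2 groups, 0 to 1 without 1 library) and 7 lower (0 with 2 groups, 3 to 6 without 1 library, 3 without replicate 2 or 3 of C91A 4-OHT or replicate 3 of untreated C91A). Apart from these low counts, depth limits every fold change of a member against a group near 0. No paired analysis was possible because the labels carry no replicate numbers.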
